A study of Mus musculus with 5 samples.

Results

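The SLC22 and SLCO genes encode 2 families of membrane carriers for organic ions: urate, drugs, carnitine, prostaglandins, bile acids, steroid conjugates and hormones. Members were all rows of the deposited FPKM table whose symbol begins with Slc22a or Slco followed by a digit. FPKM counts fragments for each kilobase of a transcript, scaled to the mapped total, so levels can be compared between genes. The rule found 41 members among 23997 rows, 26 of SLC22 and 15 of SLCO, and the annotation marks 2 of them as pseudogenes (Slc22a13b-ps and Slco6b1).

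The study sequenced RNA of whole kidneys from mice aged 8 weeks. The labels give 3 libraries of uninduced controls (control 0, 1 and 2) and 2 libraries of Pkd1 knockouts (knockout 0 and 1). The knockouts are titled SKO and called PkdTKO in the design text, and the labels explain neither name. Strain, alleles, the inducing agent and the driver of the deletion are not stated in the labels, and they do not tie the libraries to separate animals. P-values therefore measure only the spread between these libraries, which may be technical.

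In the kidney these carriers sit mostly in the proximal tubule. Organic anion transporters (OATs) of SLC22 take anions up from blood in exchange for dicarboxylates, organic cation transporters (OCTs) take up cations, and apical members return urate and carnitine from the urine. The organic anion transporting polypeptides of SLCO carry larger, amphipathic anions. Exporters of the MATE and ABC families then complete secretion. Several members are known to differ between male and female mouse kidneys.

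The libraries differed in more than genotype. Averaged over 4 genes of the Y chromosome (Ddx3y, Eif2s3y, Kdm5d and Uty), control libraries stood at 96.5% to 104.7% of the control mean, against 39.1% for knockout 0 and 0.0234% for knockout 1. Xist was at most 0.0275 FPKM in the controls and reached 30.8 and 80.3 FPKM in knockout 0 and 1. Knockout 0 thus held both Xist and Y-linked RNA. Whether it mixes RNA of male and female animals is not stated in the labels and was not tested, and this bears on every knockout 0 value and on the spread of the knockout group. No control lacked Y-linked RNA, so sex and genotype cannot be told apart. Pkd1 itself had 3.22, 3.51 and 3.49 FPKM in control 0, 1 and 2 and 2.72 and 3.60 FPKM in the knockout libraries, so its level over the whole transcript overlapped between the groups (adjusted p = 0.646). A gene-level value need not show a deletion of part of the gene. Against control 0, low values placed the sequencing depth at 0.670 to 1.09 in the other controls, against 0.569 (knockout 0) and 1.33 (knockout 1). Summed over 15 proximal tubule markers the FPKM was 6355 to 7122 in the controls, against 5005 (knockout 0) and 4900 (knockout 1). Of these markers 13 were tested, 1 was called higher (Ass1, listed at 0 in every control) and 0 lower, and Lrp2 and Slc34a1 were listed at 0 in all libraries. Both knockout libraries lay above every control in 4 tested markers and below in 5, against 21.9% and 26.3% of all tested rows. Their median log2 difference was -0.12 (0.11 for knockout 1 alone), so the lower sum was not shared by all of these markers. Fewer cells of a type and less RNA per cell cannot be told apart in such samples. Macrophage markers summed to 91.0 to 101.7 FPKM in the controls, against 388.2 (knockout 0) and 133.5 (knockout 1).

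Among the 26 members with a mean FPKM of at least 1, which were tested, 2 rose and 4 fell in the knockout libraries, and 20 did not pass (limma on log2(FPKM + 1), Benjamini-Hochberg adjusted p under 0.05 over all 12640 tested rows). Over all tested rows 6.34% were called, 2.73% higher and 3.62% lower. Those that rose were Slc22a29, a rodent-specific anion transporter, and Slco2a1, the prostaglandin transporter. Those that fell were the urate carrier Slc22a12, the imprinted transporter gene Slc22a18, the prostaglandin carrier Slc22a22 and the rodent-specific Slc22a26. Both knockout libraries lay above every control in 5 tested members and below every control in 12, against 21.9% and 26.3% of all tested rows (48.2% in either direction). At an unadjusted p under 0.05 the counts were 3 higher and 12 lower, against 12.5% and 16.6% of all tested rows (29.1% in either direction). The median log2 difference was -0.24 over the tested members and -0.02 over all tested rows. These members passed a filter on their level, so their counts describe them and do not stand for all 41. Over all rows 345 were higher and 457 lower, or 454 and 266 when each library was rescaled to TPM, while the members called were 2 higher and 3 lower with that scaling. Without control 0 or control 2 no member was called (37 and 36 of all rows were), and without control 1 only 1 was. With a single knockout library, assumed to vary like the controls, 2 rose and 9 fell without knockout 0, and 2 rose and 7 fell without knockout 1. With 3 and 2 libraries the smallest p of an exact permutation test is 0.1.

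**Figure D1:**
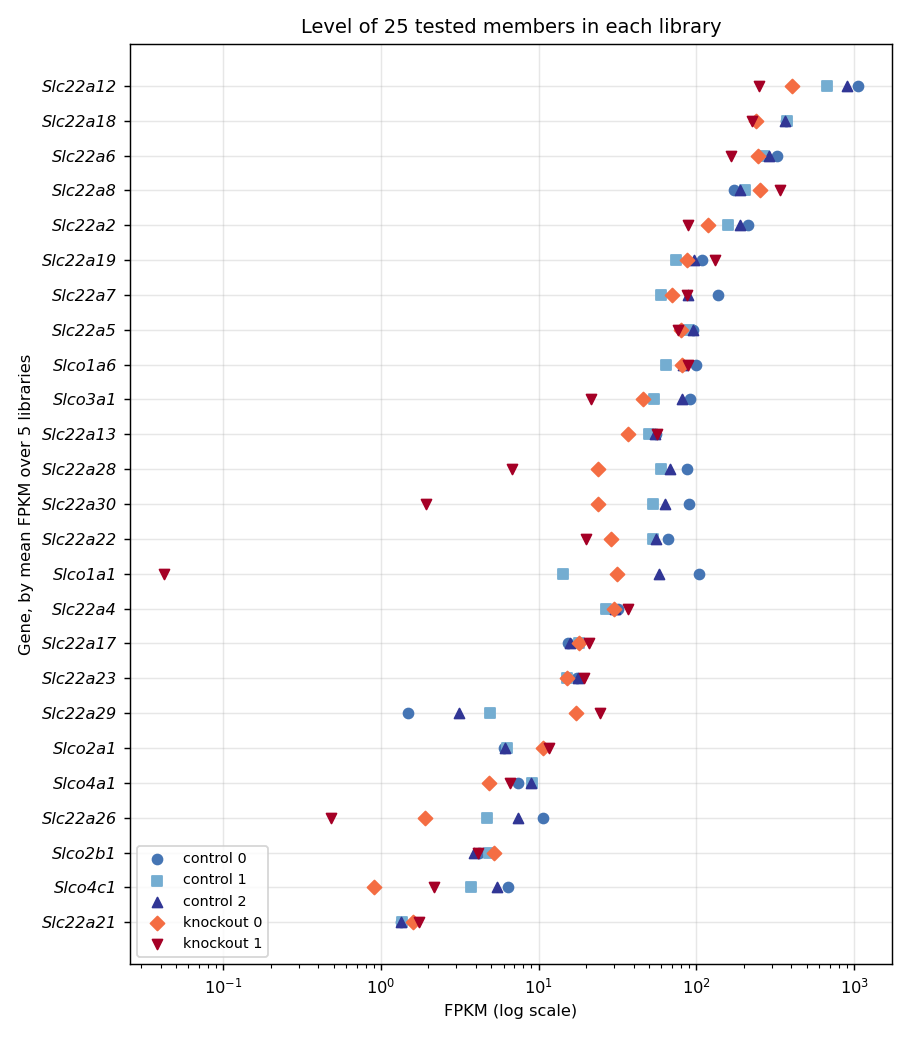
FPKM of 25 of the 26 tested members on a log axis, 1 row per gene in order of mean level, with 1 point per library (blue controls, orange and red knockouts). Slc22a12 was the highest member on average, and Slco1a1 spans the widest range, from 104.1 FPKM in control 0 to 0.0422 in knockout 1.

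SLC22 transcripts were fewer in sum in both knockout libraries. The 26 rows together reached 3088, 2458 and 2779 FPKM in control 0, 1 and 2, against 1945 (knockout 0) and 1794 (knockout 1). Slc22a12 alone made up 34.2%, 27.3% and 32.7% of that sum in the controls, against 20.9% (knockout 0) and 13.9% (knockout 1). Without it the sums were 2033, 1788 and 1871 FPKM in the controls, and 1539 and 1544 in the knockout libraries, still below every control. All rows together summed to 504914 to 507053 FPKM in the controls, against 493226 (knockout 0) and 462814 (knockout 1). The sums given here were not rescaled for this, so part of each gap, mostly in knockout 1, lies in the totals. The 15 SLCO rows summed to 319, 156 and 246 FPKM in the controls, against 179.6 (knockout 0) and 135.4 (knockout 1), and these groups overlap. Levels spanned a wide range: 6 members had a mean of at least 100 FPKM, 14 had 10 to 100, 6 had 1 to 10 and 15 were under 1.

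Apical anion carriers were among the most abundant, and they did not move together. Slc22a12 encodes URAT1, which reabsorbs urate at the brush border. It had FPKM values of 1055, 670.3 and 908 in control 0, 1 and 2, against 406.2 (knockout 0) and 249.6 (knockout 1). Both knockout libraries lay well below the lowest control, control 1, and Slc22a12 fell by 1.43 on the log2 scale (SE 0.278, limma adjusted p = 0.0471). Slc22a12 (ENSMUSG00000061742.12) spans 6535845 to 6543032 on the minus strand of mm10 chromosome 19. The adjusted p was above the threshold in 9 of 15 alternatives, where it ranged up to 0.207, and the difference was negative in all of them. Slc22a13 (OAT10), another apical carrier of urate and nicotinate, had 55.8, 49.9 and 55.0 FPKM in the controls, against 36.9 (knockout 0) and 56.6 (knockout 1). Knockout 0 lay below every control of Slc22a13 and knockout 1 just above the highest (log2 difference -0.22, 95% interval -0.68 to 0.24, adjusted p = 0.469). Slc22a19 (OAT5), an apical anion exchanger, had 107.7, 74.8 and 96.1 FPKM in the controls, against 86.7 (knockout 0) and 131 (knockout 1), and the groups overlap (log2 0.21, SE 0.230, limma adjusted p = 0.580).

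The basolateral pair Slc22a6 and Slc22a8 differed from the controls in opposite directions, though neither passed over all rows. Slc22a6 encodes OAT1 and Slc22a8 encodes OAT3, the main uptake routes of the tubule for anions such as para-aminohippurate. They are neighbours on chromosome 19, with Slc22a8 from 8591254 to 8611835 and Slc22a6 from 8618039 to 8628299, both on the plus strand. Slc22a6 had 324.7, 267.9 and 286.7 FPKM in control 0, 1 and 2, against 245.6 (knockout 0) and 164.7 (knockout 1). Slc22a8 had 174.3, 202.7 and 188.6 FPKM in the controls, against 253.3 (knockout 0) and 336.7 (knockout 1). In each gene both knockout libraries lay outside the range of the controls, and knockout 1 lay farther out. The log2 difference was -0.54 for Slc22a6 (SE 0.190, limma adjusted p = 0.142). It was 0.63 for Slc22a8 (SE 0.146, limma adjusted p = 0.0655), and both passed without knockout 0 (0.0412 and 0.0322). The ratio of Slc22a6 to Slc22a8 FPKM was 1.86, 1.32 and 1.52 in the controls, against 0.970 (knockout 0) and 0.489 (knockout 1), so OAT3 transcripts outnumbered those of OAT1 only in the knockout libraries. Slc22a7 (OAT2) varied widely among the controls, with 137.1, 59.6 and 88.7 FPKM, and the 70.3 and 86.7 of the knockout libraries fell within that range (log2 -0.20, adjusted p = 0.741).

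Among the cation carriers, Slc22a2 lay below every control. Slc22a2 encodes OCT2, which takes up cations such as metformin across the basolateral membrane. Slc22a2 had 211.3, 159.4 and 187.8 FPKM in the controls, against 118.2 (knockout 0) and 88.8 (knockout 1). Both knockout libraries lay below every control, but the log2 difference of -0.85 (SE 0.173) stayed above the threshold (limma adjusted p = 0.0532). It passed with the rows listed at exactly 0 left out (0.0492) and without knockout 0 (0.0429). Slc22a3 (OCT3) was scarce, at 0.571 to 0.743 FPKM in the controls, against 0.196 (knockout 0) and 0.660 (knockout 1), and was not tested.

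None of the 3 carnitine and ergothioneine carriers passed. Slc22a5 encodes OCTN2, which recovers carnitine from the urine. It had 95.2, 90.04 and 94.7 FPKM in the controls, against 80.3 (knockout 0) and 76.3 (knockout 1). Both knockout libraries were below every control by a small margin (log2 -0.25, SE 0.0720, limma adjusted p = 0.0977). Slc22a4 (OCTN1), which carries ergothioneine, had 31.9, 26.7 and 30.5 FPKM in the controls, against 30.2 and 36.8 in the knockout libraries. Slc22a21 (OCTN3) was near 1.34 FPKM in the controls and reached 1.60 and 1.74, above every control (log2 0.19, adjusted p = 0.262). Slc22a21 shares 88.8% of 2113 aligned transcript bases with Slc22a5, also on chromosome 11, so its low value is uncertain.

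Slc22a18 gave the tightest of the falls. It is an imprinted gene for an orphan transporter and was the second most abundant member. It had 370.2, 376.1 and 362.4 FPKM in control 0, 1 and 2, against 237.8 (knockout 0) and 226.8 (knockout 1). The controls lay close together and both knockout libraries lay far below them (log2 -0.67, SE 0.0756, limma adjusted p = 0.0198). Slc22a18 (ENSMUSG00000000154.16) spans 143473736 to 143499334 on the plus strand of mm10 chromosome 7. Of the members of uncertain transport function, Slc22a17, a proposed receptor for the injury protein Lcn2, had 15.4, 18.0 and 15.7 FPKM in the controls and 18.1 and 20.7 in the knockout libraries, just above every control, and did not pass. Slc22a23 had 15.2 to 17.8 FPKM in the controls, against 15.1 (knockout 0) and 19.3 (knockout 1), and the groups overlap.

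Slco2a1 and Slc22a22, both called and both carriers of prostaglandins, went opposite ways. Slco3a1, another such carrier, is described with the other SLCO members and lay below every control without passing. Slco2a1 encodes the prostaglandin transporter, which takes prostaglandins into cells for breakdown. It had 5.98, 6.28 and 6.09 FPKM in control 0, 1 and 2, against 10.7 (knockout 0) and 11.7 (knockout 1). The knockout libraries were close to each other and far above the narrow range of the controls (log2 0.77, SE 0.0706, limma adjusted p = 0.0122). Slco2a1 (ENSMUSG00000032548.14) spans 102988712 to 103096002 on the plus strand of mm10 chromosome 9. Slc22a22 encodes OAT-PG, a prostaglandin carrier of the mouse proximal tubule. It had 65.7, 52.9 and 55.6 FPKM in the controls, against 28.5 (knockout 0) and 19.8 (knockout 1). The knockout libraries fell to 49.1% and 34.1% of the control mean (log2 -1.25, SE 0.176, limma adjusted p = 0.0278). Slc22a22 (ENSMUSG00000022366.12) lies on chromosome 15 from 57243767 to 57477625, minus strand. Slco2a1 is also known in vascular endothelium. Of 7 endothelial markers 0 passed, 2 lay above every control in both knockout libraries (Pecam1 and Cdh5), 0 lay below and 5 overlapped. Over all tested rows 21.9% lay above every control. The sum of these markers was 176.4 to 180.5 FPKM in the controls, against 184 (knockout 0) and 192.5 (knockout 1). Whether endothelium had a part in the rise of Slco2a1 was not tested.

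**Figure D2:**
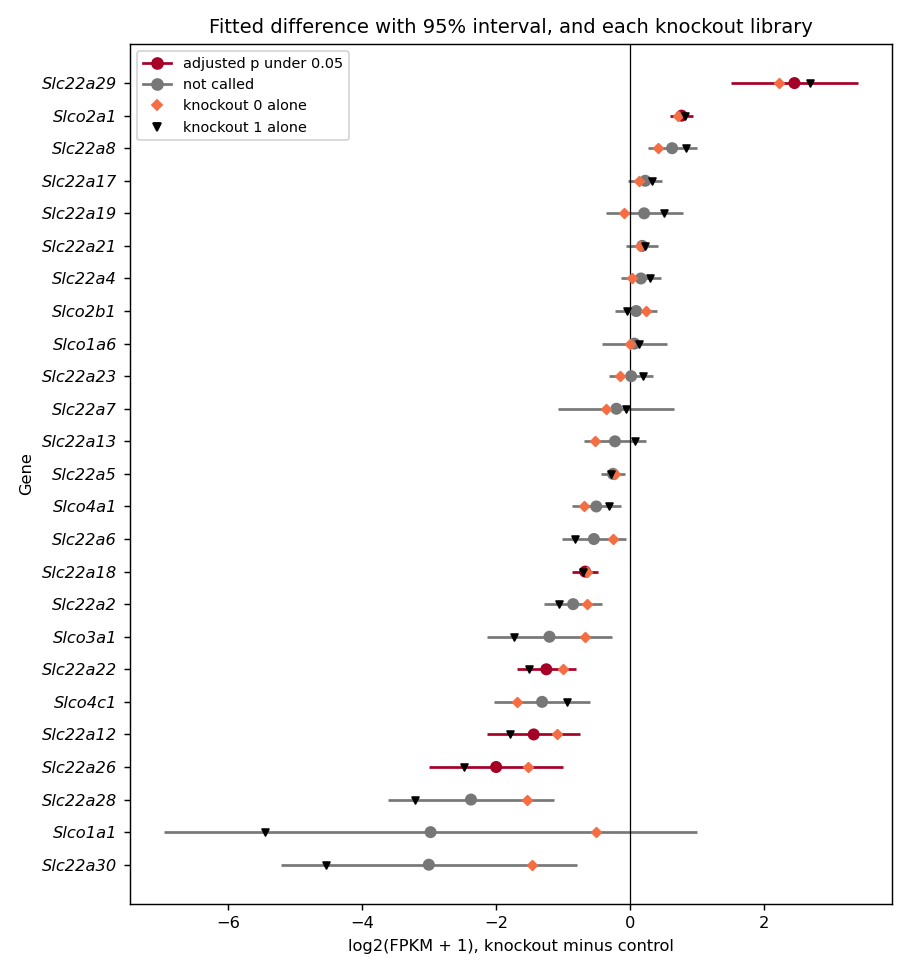
Fitted difference of log2(FPKM + 1), knockout minus control, for 25 of the 26 tested members, with its 95% interval (red where the adjusted p is under 0.05) and the difference of each knockout library alone. The 2 red points right of 0 are Slc22a29 and Slco2a1, and the 4 left of 0 are Slc22a18, Slc22a22, Slc22a12 and Slc22a26.

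A run of rodent-specific OAT genes on chromosome 19 held differences of opposite sign between close relatives. From 7673061 to 8405111 on the minus strand lie Slc22a19, Slc22a26, Slc22a27, Slc22a28, Slc22a29 and Slc22a30 in that order. The transcripts of Slc22a28 and Slc22a30 are 98.8% identical over 2005 aligned bases, with a run of 631 bases in which they do not differ. Those of Slc22a27 and Slc22a29 are 96.8% identical over 2088 bases, with a longest shared run of 161. Between the pairs, Slc22a28 and Slc22a29 are 91.1% identical. Reads can therefore be split wrongly within a pair, and the single values of these genes are uncertain. The first 90 coding bases of GENCODE M21 transcripts show the pairs, with capitals where the 4 genes do not share the base:
Slc22a28: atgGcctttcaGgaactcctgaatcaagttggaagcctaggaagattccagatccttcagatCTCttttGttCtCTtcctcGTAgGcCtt
Slc22a30: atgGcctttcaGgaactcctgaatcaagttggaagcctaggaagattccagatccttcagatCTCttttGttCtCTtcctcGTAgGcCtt
Slc22a27: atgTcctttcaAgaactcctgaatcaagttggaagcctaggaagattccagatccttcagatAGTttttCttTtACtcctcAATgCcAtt
Slc22a29: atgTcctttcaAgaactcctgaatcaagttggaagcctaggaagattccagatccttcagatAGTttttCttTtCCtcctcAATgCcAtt

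In these 90 bases Slc22a28 and Slc22a30 differ at 0 positions and Slc22a27 and Slc22a29 at 1, while Slc22a28 and Slc22a29 differ at 13. The values followed the same pairs. Slc22a28 had 87.7, 59.8 and 68.0 FPKM in control 0, 1 and 2, against 23.8 (knockout 0) and 6.78 (knockout 1). Slc22a30 had 89.8, 53.4 and 62.8 FPKM in the controls, against 23.7 (knockout 0) and 1.93 (knockout 1). Both genes were below every control in both knockout libraries, and far lower in knockout 1, at 9.44% and 2.81% of the control mean.

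Neither passed over all rows, and the 2 knockout libraries lay far apart. The log2 difference was -2.37 for Slc22a28 (SE 0.492, limma adjusted p = 0.0542). It was -3.00 for Slc22a30 (SE 0.879, limma adjusted p = 0.101), and each passed against either knockout library alone. With both knockout libraries, Slc22a28 passed when only rows averaging 5 FPKM or more were tested (0.0453) and with rows listed at exactly 0 left out (0.0497). Summed into 1 row to set the sharing of reads aside, the pair had 177.5, 113.2 and 130.8 FPKM in the controls and 47.5 and 8.71 in the knockout libraries (log2 -2.68, SE 0.671, adjusted p = 0.0761).

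Slc22a29 lies between those genes and rose. It had 1.49, 4.92 and 3.13 FPKM in control 0, 1 and 2, against 17.3 (knockout 0) and 24.4 (knockout 1). The knockout libraries were at 545.5% and 768.9% of the control mean, and both lay above every control (log2 2.46, SE 0.377, limma adjusted p = 0.0312). Slc22a27 had a mean under 1 and was not tested. It stood at 0.140, 0.235 and 0.222 FPKM in the controls and 1.06 and 1.17 in the knockout libraries, so these groups do not overlap either. With no filter on low values Slc22a27 was called (log2 0.82, adjusted p = 0.0304) and Slc22a29 was not (0.115). Summed with Slc22a29 the pair had 1.63, 5.15 and 3.35 FPKM in the controls and 18.4 and 25.6 in the knockout libraries (log2 2.46, adjusted p = 0.0306). The FPKM ratio of Slc22a30 to Slc22a29 was 60.4, 10.9 and 20.1 in the controls, against 1.37 (knockout 0) and 0.0789 (knockout 1).

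Slc22a26, farther along the same run, fell. It had 10.7, 4.72 and 7.44 FPKM in the controls, against 1.89 (knockout 0) and 0.484 (knockout 1). Both knockout libraries lay below every control, with knockout 1 at 6.36% of the control mean (log2 -1.996, SE 0.396, limma adjusted p = 0.0497). That p lay at the threshold, and 10 of 15 alternatives put it above. Among relatives outside the families, Slc22a26 shares 92.6% of 1275 aligned bases with a pseudogene on which no value was drawn here.

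**Figure D3:**
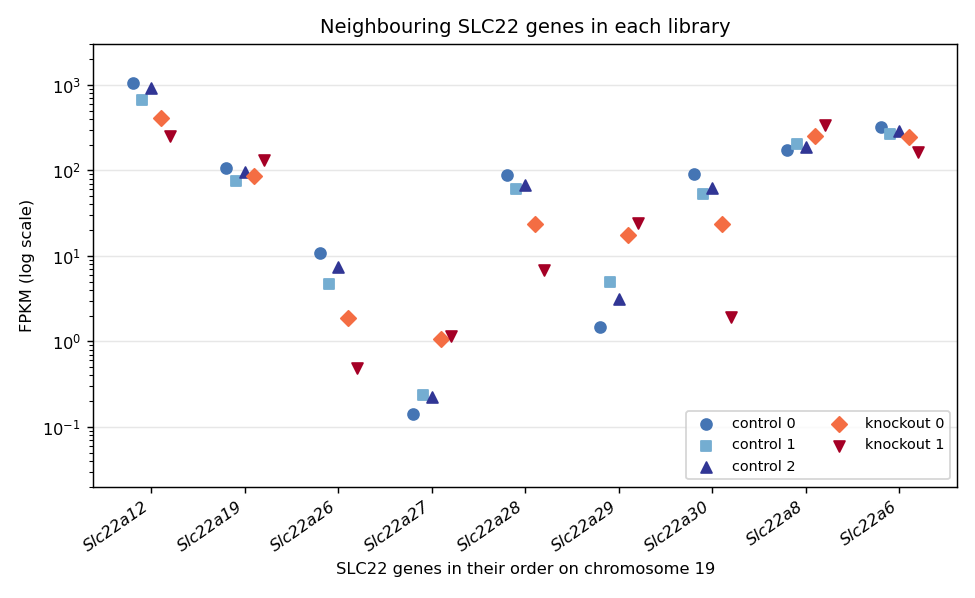
FPKM on a log axis of 9 SLC22 genes in their order along chromosome 19, with 1 point per library (Slc22a20, listed at 0 throughout, is left out). Slc22a26, Slc22a28 and Slc22a30 are lower in the knockout libraries, and Slc22a27, Slc22a29 and Slc22a8 between and beside them are higher.

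The sequences before the starts of these genes were paired less simply. RefSeq promoters were found for 35 of 41 members (GRCm38.p6, the build of mm10). Over the 250 bases before the start, Slc22a28 and Slc22a30 share 238 bases with 6 substitutions and an offset of the starts, whereas Slc22a28 and Slc22a29 share 183. Slc22a27 shares 147 with Slc22a29, 147 with Slc22a28 and 147 with Slc22a26. These values are near the lowest among the 6 genes of the run, 133 for Slc22a26 and Slc22a29 with gaps allowed. In these windows Slc22a27 was thus no closer to the gene it resembles in its transcript. The windows are set by annotated starts, and whether those starts correspond was not tested. The promoters of Slc22a28 and Slc22a30 are given because both genes were lower in the knockout libraries, 5′ to 3′ on the minus strand, with capitals at the substitutions between them.
Slc22a28, chr19:8131983-8132232: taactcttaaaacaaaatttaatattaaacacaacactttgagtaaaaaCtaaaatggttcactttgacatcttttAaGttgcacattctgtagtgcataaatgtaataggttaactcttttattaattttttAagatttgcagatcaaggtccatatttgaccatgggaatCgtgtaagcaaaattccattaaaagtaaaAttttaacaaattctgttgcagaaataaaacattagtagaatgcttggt
Slc22a30, chr19:8405106-8405355: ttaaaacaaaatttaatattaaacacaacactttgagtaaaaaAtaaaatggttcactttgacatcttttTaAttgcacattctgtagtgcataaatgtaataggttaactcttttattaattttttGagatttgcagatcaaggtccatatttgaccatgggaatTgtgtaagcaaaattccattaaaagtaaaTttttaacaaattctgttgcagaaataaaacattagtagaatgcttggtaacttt

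TGTTCT, the core letters bound by the androgen receptor, was searched on both strands and occurred in the 250 bases of 6 of the 35 member genes, against 16.1% of all 32851 promoters. Of the genes with TGTTCT, Slc22a18, Slc22a22, Slc22a26 and Slco4c1 lay below every control, and Slc22a19 and Slco2b1 overlapped between the groups. Among all 26 tested members 12 lay below every control, so no link of the motif to direction is drawn. TGTTCT was not found in the windows of Slc22a28, Slc22a30 or Slco1a1. Such matches describe these windows only.

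Slco1a1 had the widest spread of all the tested members, within the controls as well as between groups. It encodes an OATP known to be far more abundant in male than in female mouse kidney. It had FPKM values of 104.1, 14.2 and 58.0 in control 0, 1 and 2, against 31.2 (knockout 0) and 0.0422 (knockout 1). Knockout 0 lay within the range of the controls, and knockout 1 was at 0.0718% of their mean. The log2 difference of -2.97 missed the threshold (SE 1.58, limma adjusted p = 0.272, 95% interval -6.95 to 1.00), and it was -0.50 for knockout 0 alone and -5.45 for knockout 1 alone. Slco1a1 lies on chromosome 6 from 141907282 to 141946962 among close relatives. Slco1a6, which shares 84.3% of 1833 aligned bases with it, had 99.6, 63.9 and 82.4 FPKM in the controls and 80.5 and 89.0 in the knockout libraries (log2 0.07, SE 0.191, adjusted p = 0.847). Slco1a4 was at 0.517 to 0.750 FPKM in the controls and 0.517 and 0.491 in the knockout libraries, and Slco1a5 was at most 0.0339 FPKM.

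Genes outside the families that are known as male-biased in mouse kidney did not all follow 1 order over the libraries. Cyp7b1 had 115.3, 20.7 and 73.7 FPKM in the controls, against 4.05 (knockout 0) and 1.80 (knockout 1). Acsm3 had 316, 75.6 and 174.5 FPKM in the controls, against 36.9 (knockout 0) and 1.69 (knockout 1). In both, control 0 was the highest library, control 1 the lowest control and knockout 1 the lowest of all. This order held in 6 of 10 tested male-biased genes and in 10 of the 26 tested members, Slco1a1, Slc22a26, Slc22a28 and Slc22a30 among them, against 6.39% of all tested rows. The order was taken from these same libraries, and Cyp7b1 and Acsm3 are counted among the 6. The counts therefore only describe these libraries and test nothing. The order did not hold in Odc1, Cyp4a12b and Gusb, nor in Cyp4b1, which could not show it because every control was listed at 0. Knockout 0 was the highest library in Cyp4a12b, Gusb and Cyp4b1. The male-biased list summed to 1523 to 2693 FPKM in the controls, against 2888 (knockout 0) and 987 (knockout 1). Cyp4b1 alone gave 1143 (knockout 0) and 356.8 (knockout 1) of these sums and 0 in every control. A listed 0 is not read as absence here, so these sums do not compare the groups. Of the 11 male-biased genes 10 were tested, 1 fell (Cyp7b1) and 1 was called higher (Cyp4b1, listed at 0 in every control). Over all tested rows 3.62% were called lower and 2.73% higher. Kap, the best known of them, was listed at 0 in all libraries. Of 6 genes listed as female-biased 4 rose and 0 fell, against 2.73% and 3.62% of all tested rows. Among the 4 was Slc7a12, from 16.1, 27.4 and 19.9 FPKM in the controls to 107.6 and 181.3. Abcc3, counted again below among the exporters, was another of the 4. Cyp2a4 of that list had a negative difference and did not pass (log2 -1.28, limma adjusted p = 0.291). Cyp2a4 showed the library order given above for Cyp7b1 and Acsm3, with control 0 highest and knockout 1 lowest. Its listing as female-biased in kidney is therefore uncertain and was not tested, and the 6 listed genes include it. Both lists were chosen with earlier results of these data known, so their counts only describe these libraries. The part of sex in the differences of the members was not tested and cannot be told apart from genotype here.

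Control 1 was the lowest control in 10 of the 12 tested members that lay below every control, against 43.4% of all tested rows of that kind. In 10 of these 12 knockout 1 was below knockout 0, against 48.5% of all such rows. In the 5 members above every control knockout 1 was above knockout 0, against 41.0%. The members in which knockout 0 lay farther out were Slco4a1 and Slco4c1. The 7 tested macrophage markers all lay above every control, and knockout 0 was the higher of the knockout libraries in each, but 0 passed. Summed injury markers were at 354.4 to 404.4 FPKM in the controls, against 828.3 (knockout 0) and 281 (knockout 1), so knockout 1 lay below every control. Of 6 tested injury markers 0 passed, 2 lay above every control, 1 below (Cryab) and 3 overlapped. Over all tested rows 21.9% lay above every control and 26.3% below.

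**Figure D4:**
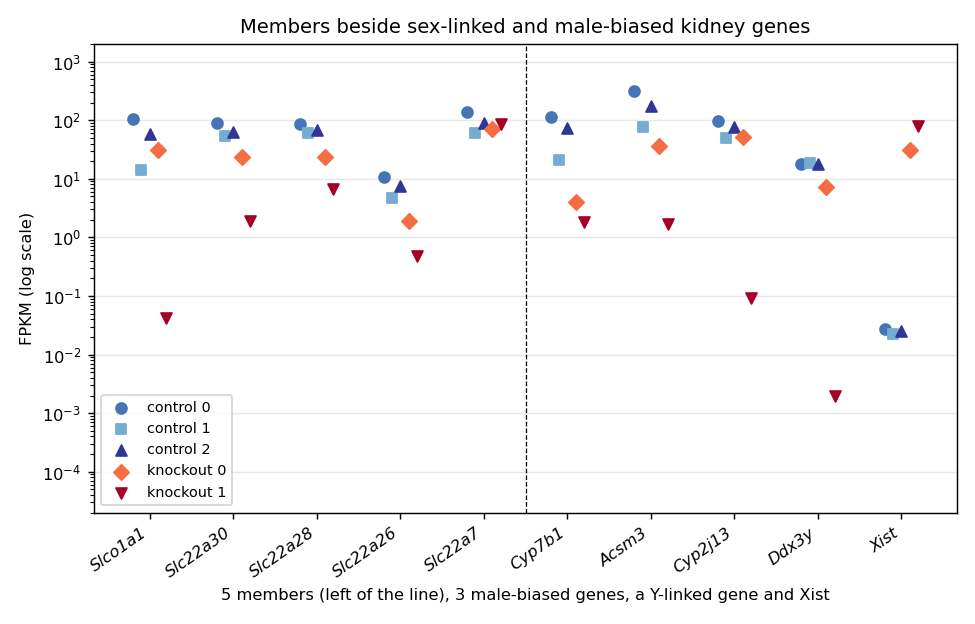
FPKM on a log axis of 5 members (left of the dashed line), 3 male-biased kidney genes, the Y-linked Ddx3y and Xist, with 1 point per library. Slco1a1, Slc22a30 and Slc22a28 are lowest in knockout 1, as are Acsm3, Cyp2j13 and Ddx3y, whereas Slc22a7 overlaps between the groups. The 3 male-biased genes come from the 6 of 10 tested that share the library order given in the text. Odc1, Gusb, Cyp4a12b and Cyp4b1, which did not show that order, are not plotted.

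Of the other tested SLCO members, 3 lay below every control without passing over all rows. Slco4c1 encodes a basolateral carrier of digoxin and thyroid hormone. It had 6.43, 3.73 and 5.46 FPKM in the controls, against 0.905 (knockout 0) and 2.18 (knockout 1). Both knockout libraries lay below every control, and knockout 0 was the lower of them (log2 -1.31, SE 0.285, limma adjusted p = 0.0595). Slco3a1, a carrier of prostaglandins and thyroid hormone, had 90.5, 53.5 and 80.6 FPKM in the controls, against 45.6 (knockout 0) and 21.3 (knockout 1) (log2 -1.20, SE 0.371, limma adjusted p = 0.111). Slco4a1 had 7.40, 9.01 and 8.94 FPKM in the controls, against 4.84 (knockout 0) and 6.59 (knockout 1) (adjusted p = 0.0997). Slco2b1, a carrier of steroid sulfates, had 3.86 to 4.81 FPKM in the controls and 5.20 and 4.10 in the knockout libraries, and the groups overlap.

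The 15 untested members were scarce or absent. Slc22a15 was at 0.587 to 0.606 FPKM in the controls and 0.859 and 0.809 in the knockout libraries, above every control. Slc22a14, whose annotated span overlaps Slc22a13 on the same strand, was at 0.270 to 0.506 FPKM over all libraries. The pseudogene Slc22a13b-ps, 99.3% identical to Slc22a13 over 681 bases, was at 0.149 to 0.221. Slco1b2, a hepatocyte carrier, was at most 0.0315 FPKM, and Slco1c1 and Slco5a1 were at most 0.0441 and 0.0589. Slc22a16 and the pseudogene Slco6b1 were above 0 in control 1 alone, and Slc22a20, Slco6c1 and Slco6d1 were listed at 0 in all 5 libraries. Since abundant genes such as Lrp2 were also listed at 0, a listed 0 is not read as absence. Of 9 liver markers 8 were tested, 1 rose and 2 fell, against 2.73% and 3.62% of all tested rows. Both knockout libraries lay above every control in 2 of them and below in 5, against 21.9% and 26.3% of all tested rows. The sum of the liver markers was 189.7 to 203.7 FPKM in the controls, against 140.9 (knockout 0) and 96.9 (knockout 1), a fall not shared by all of them.

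The carriers and regulators that work with these families were taken as 5 lists of 52 genes. Of 44 tested, 3 rose, 4 fell and 37 did not pass, against 2.73% and 3.62% of all tested rows. Their median log2 difference was -0.11. Among 12 tested exporters 2 rose and 0 fell. Abcc3, a basolateral exporter of conjugated anions, rose from 0.815, 1.16 and 0.964 FPKM to 18.1 and 24.2 (log2 3.48, adjusted p = 0.000588). Abcc3 is also among the genes listed as female-biased, and sex and genotype cannot be told apart here. Abcc4, which exports prostaglandins and cyclic nucleotides, rose from 7.33, 8.00 and 7.58 FPKM to 13.4 and 15.7 (log2 0.84, adjusted p = 0.0176). Abcb1b was at 3.72 to 5.38 FPKM in the controls and 7.42 and 13.8 in the knockout libraries. Slc47a1, the MATE exporter paired with the OCTs, was at 325.4 to 355 FPKM in the controls and 287.2 and 291.6 in the knockout libraries (adjusted p = 0.160).

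Of 10 tested carriers of urate, lactate, bile acids and peptides 1 rose and 1 fell. Slc17a2, a phosphate and anion carrier, rose from 0.0537, 0.252 and 0.108 FPKM to 4.39 and 5.19 (log2 2.35, adjusted p = 0.00244). Slc5a8, which takes up lactate with sodium, fell from 116.4, 70.4 and 91.1 FPKM to 26.8 and 24.1 (log2 -1.80, adjusted p = 0.0207). Slc17a1, an apical urate and phosphate carrier, was at 347.2 to 433.7 FPKM in the controls and 274.2 and 255.7 in the knockout libraries (adjusted p = 0.0549). Slc10a2, the bile acid carrier, was at 17.5 to 23.8 and at 31.6 and 40.6.

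Among 6 tested genes that maintain the exchange gradients 0 rose and 2 fell. Slc26a1, a sulfate and oxalate exchanger, fell from 57.1, 53.9 and 57.0 FPKM to 35.2 and 34.0 (log2 -0.68, adjusted p = 0.0147). The mitochondrial dicarboxylate carrier Slc25a10 fell from 110.2, 96.3 and 106.6 FPKM to 63.5 and 61.6 (log2 -0.73, adjusted p = 0.0207). Slc13a3, which supplies dicarboxylates for exchange by OAT1 and OAT3, was at 238.5 to 301.9 FPKM in the controls and 197.4 and 239.7 in the knockout libraries (adjusted p = 0.206). Of 11 tested scaffolds and regulators 0 passed, with 1 higher and 2 lower at an unadjusted p under 0.05. Pdzk1, the scaffold that binds URAT1 and other apical carriers, was at 673.8, 598.3 and 679.8 FPKM in the controls and 442.2 and 517.4 in the knockout libraries (adjusted p = 0.0811). Hnf4g was at 4.97 to 5.40 and at 3.95 and 4.04. Of 5 tested carnitine genes 1 fell: Aldh9a1, an enzyme of carnitine synthesis, went from 220.5, 190.5 and 202.1 FPKM to 133.3 and 121.6 (log2 -0.68, adjusted p = 0.0278). Cpt2, which uses carnitine in mitochondria, was at 70.8 to 83.4 FPKM and at 57.6 and 45.6 (adjusted p = 0.0643).

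**Figure D5:**
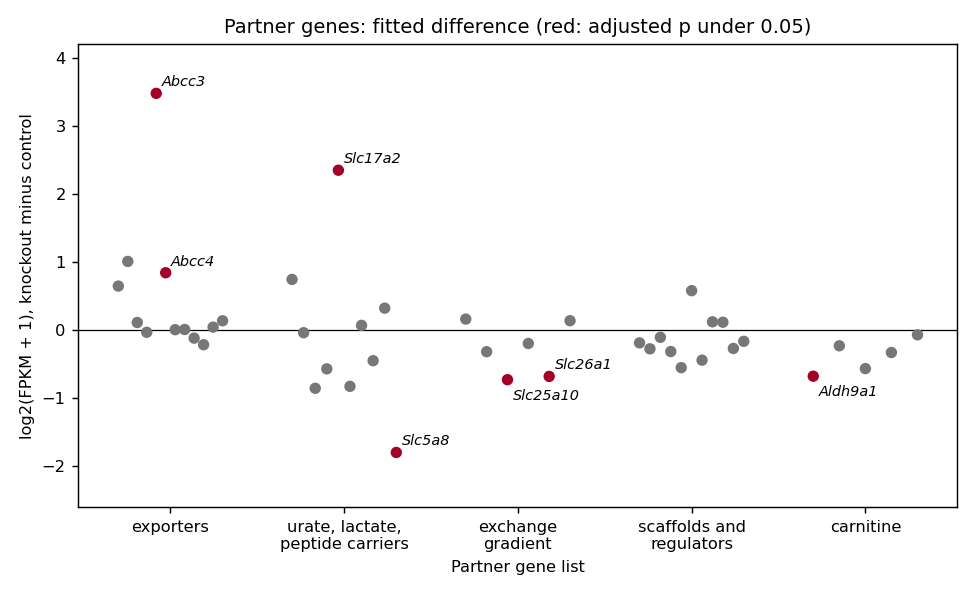
Fitted difference of log2(FPKM + 1), knockout minus control, for the 44 tested partner genes, 1 point per gene in 5 lists, red where the adjusted p is under 0.05. The 3 red points above 0 are Abcc3, Slc17a2 and Abcc4, and the 4 below are Slc5a8, Slc25a10, Slc26a1 and Aldh9a1.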

How the data were processed

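The deposited table holds FPKM computed by the authors, 1 column per library, with 0 value columns left without a library. TRIzol was used for RNA extraction, with 1 µg as input to an Illumina mRNA-seq kit, per the labels' protocols. The submitters' processing notes name bcl2fastq and mm10. The aligner, FPKM program, annotation and strandedness were not given in the sources used here, and the labels name no batch.

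Here log2(FPKM + 1) was fitted by limma 3.58.1 in R 4.3.3 (variance trend, two-sided, Benjamini-Hochberg over the 12640 rows whose mean FPKM reached 1, threshold 0.05). All adjusted p-values come from this fit unless another setting is named. Fold changes on that scale understate low genes. The fit was tested on simulated data.

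Depth is not stated. Low values fall on steps of whole fragments, which gave relative depths, and an FPKM of 1 in a transcript of 2 kb rested on about 174 to 412 fragments, covering counting error only. Relatives came from blastn 2.17.0 on GENCODE M21 transcripts (at least 80% identity over 400 bases, near-identical from 95%), promoters from RefSeq, aligned with Biopython 1.88.

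Members and lists were chosen with earlier results of these data known. Members with a mean FPKM of at least 1 have their values given, except 1 that is not reported here, and up to 4 genes of each partner list by adjusted p. Further genes were named after their values were seen.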

Additional observations from a re-analysis of the deposited data

How the results depend on the processing

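Calls depended on single libraries and on scaling. Members called higher and lower numbered 2 and 4. With no filter on low values 1 fell, and of the 2 higher Slc22a27 took the place of Slc22a29 (adjusted p 0.115), with median-of-ratios scaling 2 and without a variance trend 2. Over all rows 802 were called, 247 with no filter. Leaving out each library in turn gave 36 to 2599 of all rows, 0 to 2 members higher and 0 to 9 lower, and 2 to 5 partner genes higher and 0 to 7 lower. Partner genes called lower numbered 4, and 1 with no filter. With the replicate number as a block 28 rows, 0 members higher, 0 members lower, 1 partner gene higher and 0 lower were called. The numbers are not said to pair libraries, and the correlation of deviations was 0.0863 and 0.00236 for same-numbered libraries.

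Among the members named, the sign changed for 6, none of them called. With each library left out in turn the log2 difference ranged from -0.0812 to 0.508 for Slc22a19 and from -0.493 to 0.101 for Slc22a7. It ranged from -0.0975 to 0.218 for Slco1a6, from -0.523 to 0.0792 for Slc22a13, from -0.149 to 0.189 for Slc22a23 and from -0.0456 to 0.236 for Slco2b1. The cause of these changes was not tested. The 6 members called kept their sign in all 15 alternatives. In each of these members the groups do not overlap, so most alternatives could not change the sign. That holds for leaving out a library, the replicate block, the pseudocount, the row filters and the variance trend. Only rescaling of the libraries could have changed it.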
